A study of Mus musculus with 8 samples.

Results

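The genes followed here are 46 genes known to be induced by type I interferon and were measured in heart and blood leukocytes of 4 mice. Members were found by gene symbol: 44 of the 46 had a row among the 32285 gene rows, and Mx1 and Mx2 were not analysed here. The mice were Mx1Cre:c-Mybfl/fl recipients, depleted of their own marrow, that had received bone marrow from control donors (2 mice, control replicates 1 and 2) or from donors with stroke (2 mice, stroke replicates 1 and 2). CD45+CD11b+ cells of heart and blood were sorted, tagged by organ with hashtag antibodies, pooled for each mouse and sequenced as 1 droplet library of transcript 3′ ends per mouse. All 4 recipients, controls included, carried the Cre transgene and the floxed c-Myb alleles. The Mx1 promoter that drives this Cre is itself switched on by type I interferon. The agent used to induce the Cre, the interval to sampling, the time after stroke, the age of the mice and the genotype of the donors are not given in the sources used here. Heart and blood cells of a mouse shared a library, whereas donor groups never did, so library and donor group cannot be told apart.

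Type I interferons are cytokines that cells release on sensing viral or misplaced nucleic acid. They bind the receptor chains Ifnar1 and Ifnar2, whose kinases Jak1 and Tyk2 activate Stat2 among other factors. Stat2 joins Irf9 in a complex that binds the interferon-stimulated response element in promoters and switches on antiviral genes such as the Ifit and Oas families, Isg15 and Rsad2. Monocytes and neutrophils are known to carry some of these transcripts without infection.

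After filtering, 4940 heart and 4741 blood barcodes remained, each taken as 1 cell. Libraries held 10059365 to 16482961 gene UMIs (unique molecular identifiers, each standing for 1 captured transcript), with a median of 3996 to 4681.5 UMIs per barcode, and 14 barcode sequences occurred in more than 1 library. Cell classes were named from marker genes, so each class name stands for cells like that type (neutrophil-like and so on), and clusters that could not be named held 6.52% to 9.3% of heart barcodes. The sort was labelled by the myeloid marker CD11b, yet 531 heart and 1261 blood barcodes were B cells and 170 and 487 were NK cells. In the blood of stroke replicate 2, 990 of 1297 barcodes were B cells. Of Xist, control replicate 1 held 1 UMI and the other mice 5529 to 10901. Of Ddx3y, a gene on the Y chromosome, it held 507 and the others 1 to 3. This library therefore differed from the rest in the sex of its cells, and what part that has in the differences between mice was not tested. Values of mice are given in the order control replicate 1, control replicate 2, stroke replicate 1, stroke replicate 2. Levels are CPM, the UMIs of a gene per 1000000 UMIs of all cells of a class in 1 mouse and organ. They count transcript ends and are not scaled by gene length, and in such sums fewer positive cells and less RNA per cell cannot be told apart.

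Several members sit next to each other in the genome (GRCm38 coordinates). The 8 Ifi genes of the DNA-binding HIN-200 family lie at chr1:173468485-174031810. The 4 Ifit genes lie at chr19:34550694-34650009 and the 4 Oas genes at chr5:120730333-120907521. Oasl2 and Oasl1 lie at chr5:114896936-114937915, Rsad2 and Cmpk2 at chr12:26442746-26479837, and Ifitm3 and Irf7 at chr7:141009586-141266481. Within the Ifi, Ifit and Oas groups near-identical copies exist, and reads shared by such copies may have been split or dropped in counting, so single values of Ifit3 and Ifit3b in particular are uncertain.

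RefSeq promoter windows (GRCm38.p6, 250 bases before to 50 after the start site) were found for 35 members. The core of the interferon-stimulated response element, GAAA followed by any 2 bases and GAAA again, searched on both strands, was present in 22 of these 35 (62.9%) and in 3.99% of 27025 genes with a window. The form with any 3 bases between the repeats was present in 6 of 35 (17.1%) and in 3.17% of all genes. At least 1 of the pair, which can overlap each other, was present in 24 of 35 (68.6%), against 6.9% of all genes. The 7 promoters shown here all hold a match and belong to genes with differences between cells or organs described further on. Other genes with such differences had no match, as listed below. Each covers the 200 bases before the start site, 5′ to 3′ on the gene's strand, with matches to either form on either strand in capitals.
Isg15: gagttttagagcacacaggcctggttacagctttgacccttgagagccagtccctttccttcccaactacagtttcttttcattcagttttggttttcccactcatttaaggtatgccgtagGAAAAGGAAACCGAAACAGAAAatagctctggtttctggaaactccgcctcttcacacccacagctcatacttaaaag
Ifit1: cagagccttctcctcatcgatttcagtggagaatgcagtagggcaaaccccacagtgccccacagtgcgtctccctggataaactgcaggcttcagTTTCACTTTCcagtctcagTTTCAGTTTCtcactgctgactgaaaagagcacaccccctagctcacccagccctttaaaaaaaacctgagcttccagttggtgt
Ifit3: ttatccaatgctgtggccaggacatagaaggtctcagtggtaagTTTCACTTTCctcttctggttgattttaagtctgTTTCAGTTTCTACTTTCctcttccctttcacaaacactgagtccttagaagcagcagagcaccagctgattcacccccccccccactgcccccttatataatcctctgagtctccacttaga
Ifit3b: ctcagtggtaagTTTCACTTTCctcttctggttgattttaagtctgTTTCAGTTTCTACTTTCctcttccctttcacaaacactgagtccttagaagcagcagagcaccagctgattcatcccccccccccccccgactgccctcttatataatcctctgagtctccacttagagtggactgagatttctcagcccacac
Rsad2: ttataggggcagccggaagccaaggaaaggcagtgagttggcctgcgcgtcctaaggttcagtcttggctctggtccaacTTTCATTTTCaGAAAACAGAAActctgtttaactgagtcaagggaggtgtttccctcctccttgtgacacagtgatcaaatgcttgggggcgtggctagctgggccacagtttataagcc
Slfn5: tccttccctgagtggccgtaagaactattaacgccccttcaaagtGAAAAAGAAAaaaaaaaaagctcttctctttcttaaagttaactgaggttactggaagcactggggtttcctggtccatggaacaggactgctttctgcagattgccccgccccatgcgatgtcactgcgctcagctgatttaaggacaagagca
Ifi207: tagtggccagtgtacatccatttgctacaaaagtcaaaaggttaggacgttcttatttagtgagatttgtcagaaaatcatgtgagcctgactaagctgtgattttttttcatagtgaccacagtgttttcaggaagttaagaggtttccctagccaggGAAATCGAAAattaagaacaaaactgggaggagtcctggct
These stretches lie at chr4:156200819-156201018 (Isg15, minus strand), chr19:34640689-34640888 (Ifit1, plus), chr19:34583329-34583528 (Ifit3, plus), chr19:34607757-34607956 (Ifit3b, plus), chr12:26456453-26456652 (Rsad2, minus), chr11:82951902-82952101 (Slfn5, plus) and chr1:173741810-173742009 (Ifi207, minus). In Isg15 the matches overlap and start 78, 72 and 66 bases before the start site. The match in Slfn5 starts 155 bases before it and the match in Ifi207 41 bases before it. The Ifit3 and Ifit3b stretches share a run of 169 identical bases. Oasl1, Oasl2, Isg20, Irf7, Irf9, Herc6, Ifit2, Ifi209, Ifi47, Xaf1 and Cmpk2 had a window and no match. This says only that these letters are absent from that window. Ifi209, Oasl2, Isg20 and Irf9 are among the members with called differences between organs.

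The members fell into unlike patterns across cell classes. They included membrane proteins and Ifi27l2a with high UMI totals in monocytes, a group of 12 classical antiviral genes with their highest levels mostly in neutrophils, and a few members led by NK cells. In heart, classical monocytes had the highest mean level over the 4 mice for 17 of 44 members and neutrophils for 14. In blood, classical monocytes led for 25 and neutrophils for 13. Ifitm3, Ly6e, Bst2 and Ifi27l2a alone supplied 60.67% of all member UMIs in heart and 59.24% in blood. Every mean in the next 5 paragraphs is over 4 mice with its SD, stroke and control mice together.

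Among the membrane factors, Ifitm3, which restricts the entry of viruses, was at 4270 ± 262 CPM (SD, n = 4) in blood classical monocytes and 3854 ± 346 in heart classical monocytes. Blood and heart nonclassical monocytes followed at 2458 ± 339 and 2319 ± 310, a difference smaller than the SDs. Neutrophils held 1131 ± 413 in blood, and B and NK cells 63.7 CPM or less in either organ. Ly6e, a membrane-anchored surface protein, had a flatter order. It stood at 1556 ± 117 CPM in blood nonclassical monocytes, 1385 ± 53.2 in blood classical monocytes and 1360 ± 146 in blood B cells, neighbours whose ranges touch, but at 343 ± 51.6 in blood neutrophils. Bst2 (tetherin), which holds budding virus at the cell surface, reached 471 ± 221 CPM in blood dendritic cells and 292 ± 56.8 in heart macrophages and was at 5.66 ± 4.24 in blood neutrophils.

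The members grouped here as antiviral genes acting on RNA, and those of the Isg15 pathway, split between neutrophils and classical monocytes. Oasl2, an oligoadenylate synthetase-like protein, was at 496 ± 176 CPM in blood neutrophils and 301 ± 114 in heart neutrophils, against 117 ± 19.2 in blood classical monocytes. Slfn5, a Schlafen family gene, had the opposite order, with 458 ± 52.2 CPM in blood classical monocytes, 309 ± 22.7 in heart classical monocytes and 129 ± 75.3 in blood neutrophils. Eif2ak2, the kinase that stops translation on binding double-stranded RNA, and Zbp1, a sensor of left-handed nucleic acid, were also highest in blood classical monocytes, at 137 ± 24.2 and 147 ± 10.9 CPM. Isg15, a ubiquitin-like protein joined to other proteins, was at 446 ± 228 CPM in heart neutrophils and 174 ± 92.2 in blood neutrophils. The wide SD in heart neutrophils reflects the spread between mice given below. Its ligase Herc6 and its protease Usp18 both had their highest means in blood classical monocytes, at 83.9 ± 20 and 49.8 ± 13.6 CPM.

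The HIN-200 family binds DNA, and in blood neutrophils Ifi207, Ifi203 and Ifi209 had mean levels of 22.7 CPM or less. Ifi207 was at 626 ± 53.9 CPM in heart macrophages and 453 ± 17.4 in blood classical monocytes, and at 22.7 ± 6.61 in blood neutrophils. Ifi203 ranged between 302 ± 18.2 and 327 ± 56.3 CPM in B cells of both organs, blood dendritic cells and blood classical monocytes, which did not differ beyond their SDs, and was at 2 ± 2.64 in blood neutrophils. Ifi204 was at 311 ± 32.9 CPM in blood classical monocytes, at 88.2 ± 29.2 in blood neutrophils and at 0 UMIs in the NK cells of every mouse and organ. Among the transcription factors, Irf7, which amplifies interferon production, was at 133 ± 26.1 CPM in blood and 130 ± 28.9 in heart classical monocytes, and below 5 CPM in B cells. Irf9 was at 101 ± 40.1 CPM in blood neutrophils and 96.1 ± 14.7 in blood classical monocytes, means that lie within their SDs.

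Of the remaining members, Trim30a, a TRIM family ligase, was led by neutrophils at 489 ± 87.8 CPM in blood and 400.2 ± 126 in heart. Sp100, a component of nuclear bodies, was led by NK cells, at 603 ± 70.7 CPM in blood and 467 ± 94.7 in heart. Ifi47, a GTPase of the immunity-related family, was likewise at 113 ± 19.4 and 106 ± 26 CPM in NK cells of blood and heart, against 63.7 ± 9.22 in blood classical monocytes. Parp14, an ADP-ribosyltransferase, ranged from 123 ± 25 CPM in heart nonclassical to 225 ± 11.3 in blood classical monocytes. Summed over the 44 members, the level was 132 ± 13.8 UMIs per 10000 in blood classical monocytes, 54.7 ± 19.3 in blood neutrophils and 21.4 ± 1.96 in blood NK cells.

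A different order held for the sum of 12 genes that respond steeply to interferon, here called the core genes: Ifit1, Ifit2, Ifit3, Ifit3b, Isg15, Rsad2, Cmpk2, Oasl1, Oasl2, Usp18, Rtp4 and Irf7. Their summed level in heart neutrophils was 6.93, 17.6, 23.1 and 13.7 UMIs per 10000 in the 4 mice, and in blood neutrophils 6.73, 15.1, 19.4 and 10.8. In blood classical monocytes the 4 values were 7.65, 6.42, 8.47 and 4.67, in heart classical monocytes 4.34, 6.02, 4.45 and 4.07, and in heart macrophages 2.09, 3.28, 3.67 and 2.76. Heart neutrophils were thus above heart macrophages in every mouse, and blood neutrophils above blood classical monocytes in every mouse but control replicate 1. Control replicate 1 had the lowest neutrophil level in both organs and stroke replicate 1 the highest. Gene by gene, neutrophils had the highest mean for 9 of the 12 core genes in heart and for 7 in blood. Blood classical monocytes led for 5: Cmpk2, Ifit2, Ifit3, Irf7 and Usp18.

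**Figure D1:**
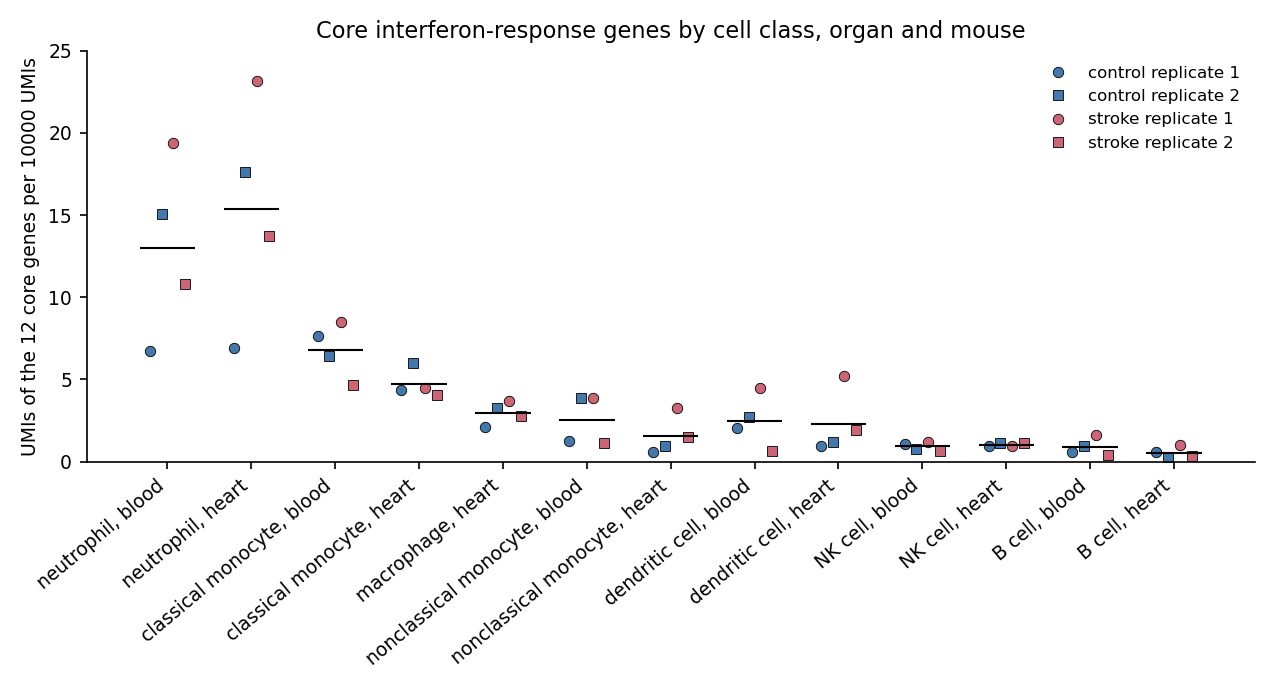
Summed level of the 12 core genes in UMIs per 10000 UMIs (vertical axis) for each cell class of heart and blood. Points are mice, coloured by donor group, and lines are means of 4 mice. Neutrophils have the highest means in both organs, their mice spread from 6.73 to 23.1, and in control replicate 1 blood classical monocytes (7.65) lie above blood neutrophils (6.73).

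The mice differed in the same order for many, but not all, members. Over the 13 class and organ sums, the summed level of all members was lowest in control replicate 1 in 11 and highest in stroke replicate 1 in 12. Without Ifitm3, Ly6e, Bst2 and Ifi27l2a it was lowest in control replicate 1 in 8 and in stroke replicate 2 in 5, and the core sum was lowest in each of these mice in 6. Over all heart cells, 41 of 44 members were lowest in control replicate 1 (93.18%), against 34.98% of all genes with 40 or more UMIs. In blood neutrophils the count was 24 of 30 members (80%), against 15.79% of genes, and in heart macrophages 34 of 43 (79.07%), against 30.69%. Over all blood cells, instead, 39 of 43 members (90.7%), against 41.84% of genes, were lowest in stroke replicate 2, the sample made up mostly of B cells. Within single blood classes this mouse was lowest for 24 of 28 members in dendritic cells (85.71%, against 35.19% of genes), 23 of 43 in classical monocytes (53.49%, against 33.59%) and 14 of 29 in B cells (48.28%, against 23.04%). The shares were nearer to those of genes in NK cells (41.18%, against 30.07%) and nonclassical monocytes (36.67%, against 31.33%). In blood neutrophils it was lowest for only 5 of 30 members (16.67%, against 43.23%).

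Core transcripts were unevenly spread over cells. The 5% of heart neutrophils with most core UMIs held 42.18% of them, and the same share of blood neutrophils held 32.16%. This was not particular to neutrophils. Among the larger classes blood neutrophils had the lowest value and heart nonclassical monocytes the highest (58.01%), with 53.78% in blood B cells and 35.29% in heart classical monocytes. In heart nonclassical monocytes 101 of the 412 core UMIs lay in 1 barcode. These shares come from unthinned counts, and classes differ in how many cells held any. No core UMI was found in 81.36% of blood B cells, against 37.43% of blood neutrophils. To count cells with a broad response at equal depth, each cell was thinned to 1000 UMIs and called rich when it held 5 or more of the 12 core genes. In heart 37 of 4791 cells were rich, 19 of them neutrophils (of 419), 8 macrophages (of 1949), 3 endothelial cells (of 129), 2 dendritic cells (of 191) and 2 classical monocytes (of 321). In blood 54 of 4611 cells were rich, 32 of them neutrophils (of 1033) and 21 classical monocytes (of 1019). No B cell was rich (0 of 527 in heart and 0 of 1227 in blood, which allow shares of up to 0.569% and 0.244%), and no NK cell (0 of 167 and 0 of 476, allowing up to 1.8% and 0.63%).

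Among heart neutrophils the rich share was 1.79% in control replicate 1 (95% exact Clopper-Pearson interval 0.0452% to 9.55%), 6.74% in control replicate 2 (2.51% to 14.1%), 5.67% in stroke replicate 1 (2.48% to 10.9%) and 3.01% in stroke replicate 2 (0.825% to 7.52%). Among blood neutrophils the shares were 0.723% (0.149% to 2.1%), 3.43% (1.39% to 6.94%), 5.66% (3.54% to 8.52%) and 2.33% (0.0589% to 12.3%). These intervals cover counting error only. The donor groups overlapped in both organs. Rich cells lay near the limit: 31 further blood neutrophils and 10 further heart neutrophils held 1 gene too few.

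Rich cells kept the main markers of their class. In 21 rich blood classical monocytes the median classical marker sum was 77.61 per 10000 UMIs, against 71.19 in the others. Their nonclassical sum was 2.22 against 5.547 and their plasmacytoid dendritic sum 3.151 against 0. The 32 rich blood neutrophils had median neutrophil and classical monocyte sums of 1334 and 13.74, against 1274 and 11.08. The 19 rich heart neutrophils had a median of 2027 UMIs, against 2168 in the 400 others. Their neutrophil sum was 1078 against 1332, and their classical monocyte sum 14.59 against 9.224. Medians of the macrophage, nonclassical monocyte, B, NK and dendritic lists were 0 in rich and other heart neutrophils alike. In these 19 cells Isg15 was at 4036 CPM against 315.5 in the others, and Rsad2 at 2289 against 155.6, which the rule for choosing them partly fixes. Genes that the rule did not use were also higher in them. Slfn5 was at 1034 CPM against 113, and Ifi27l2a at 2239 against 632.1. These are sums over cells of 4 mice, given as a description.

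Heart and blood cells of the same mouse were then compared, class by class, to ask how the response differs between tissue and circulation. The test was edgeR's quasi-likelihood test on sums per mouse and organ with the mouse as a block, and p-values were adjusted by Benjamini-Hochberg over all genes. Over 6 classes, 36 of 147 member tests passed an adjusted p of 0.05, against 13.4% of the tests of all genes. Calls differed in direction by class. In heart neutrophils Isg15, Rsad2, Ifit3, Ifit1 and Isg20 were higher and Oasl2 lower than in blood, and in monocytes and dendritic cells all called members but 1 were lower in heart. P-values here measure the spread between 4 mice.

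In neutrophils 5 members were higher in heart and 1 lower, of 26 tested, against 21.8% of all genes called and 13.9% called higher, so that the share of members called was near that of all genes. The members' median difference was 0.17 on the log2 scale and that of all genes -0.03. Scaling by library totals in place of TMM moved the median of all genes to -0.29 and the members' to -0.09, and then 4 members were called higher and 5 lower, so neutrophil changes are relative to the other genes. The antiviral genes acting on RNA had 3 called higher and 1 lower of 10 tested, and the Isg15 pathway 1 of 2.

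Isg15 was at 204.3, 609.3, 669.2 and 299.9 CPM in heart neutrophils and at 91.33, 197.3, 294 and 112.8 in blood neutrophils. It was higher in the heart of all 4 mice, by 1.58 on the log2 scale (SE 0.14, adjusted p = 2.2e-07). Rsad2 (viperin), an enzyme that makes a chain-terminating nucleotide, was at 131.3, 167.1, 378.4 and 214.2 CPM in heart and 82.8, 122.1, 241 and 135.4 in blood. It too was higher in every heart, by 0.85 (SE 0.15, adjusted p = 5.6e-04). Ifit3, which binds viral RNA together with Ifit1, was at 36.48, 93.35, 153.2 and 91.81 CPM in heart and 19.48, 37.57, 78.03 and 22.56 in blood, a difference of 1.37 (SE 0.24, adjusted p = 5.4e-04). Heart exceeded blood in each mouse, and these 3 genes passed the threshold in every alternative in which they were tested.

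Isg20, an RNA exonuclease, was at 58.37, 206.4, 178.2 and 134.6 CPM in heart and 58.45, 108, 107.3 and 101.5 in blood. It was higher in the heart of 3 mice and equal in control replicate 1, with a difference of 0.89 (SE 0.20, adjusted p = 0.0035). It did not pass when control replicate 2 (adjusted p = 0.0576) or stroke replicate 1 (0.0555) was left out. Ifit1 differed by 0.94 (SE 0.29, adjusted p = 0.0284), a call that ended under library totals (0.69, adjusted p = 0.0765) and under 4 other settings.

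Oasl2 ran the other way in neutrophils, with 131.3, 363.6, 365.9 and 342.7 CPM in heart and 265.5, 666.9, 590.8 and 462.5 in blood. It was lower in every heart (log2 difference -0.49, SE 0.13, adjusted p = 0.0095), but did not pass when control replicate 2 (adjusted p = 0.0741) or stroke replicate 1 (0.0579) was left out. For fits without rich cells, here and below, barcodes were left out by their core genes in unthinned counts. That set depends on depth and is wider than the thinned one described above. Without these barcodes, Isg15 still differed by 1.43 and Rsad2 by 0.65 on the log2 scale, both called. Isg20 did not pass (0.58, adjusted p = 0.062). Marker sums of nonclassical monocytes in neutrophils moved with organ, at 6.86, 2.36, 3.72 and 3.43 per 10000 UMIs in heart and 0.45 to 0.85 in blood. Their part in these differences was not tested.

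In nonclassical monocytes 13 of 26 members tested were lower in heart and none was higher, against 17.1% of all genes called and 6.1% called lower. The members' median difference was -0.60, that of all genes -0.01. Called members spanned the roles: 4 of 6 antiviral genes acting on RNA, 3 of 6 sensors, 2 of 3 transcription factors and 3 of 6 other induced genes, but 0 of 3 membrane factors, whose median was -0.06.

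Slfn5 was at 12.59, 14.44, 30.92 and 18.69 CPM in heart and 60.4, 159.7, 146.9 and 51.43 in blood nonclassical monocytes. The organs did not overlap (log2 difference -2.38, SE 0.23, adjusted p = 8.6e-13). Ifi27l2a, a small interferon-induced protein, was at 216.5, 329.2, 785.4 and 395.2 CPM in heart and 440.9, 920.7, 1698 and 841.7 in blood. Each heart lay below its own blood, although the highest heart exceeded the lowest blood (difference -1.07, SE 0.08, adjusted p = 8.2e-16). Oasl2 differed by -1.40 (SE 0.29, adjusted p = 2.0e-04), Ifi209 by -1.08 (adjusted p = 5.8e-06), Sp100 by -0.81 (adjusted p = 2.8e-07) and Irf9 by -0.89 (adjusted p = 0.0015).

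Slfn5, Ifi27l2a, Ifi209 and Sp100 were called in nonclassical monocytes under every alternative run. The classical monocyte marker sum in these cells was 0.87 to 1.74 per 10000 UMIs in heart and 4.58 to 7.87 in blood, and most of the class came from cluster 6 in heart and cluster 7 in blood. The macrophage marker sums were alike, at 13.3 to 14 and 12.8 to 14. Whether the classical marker difference has a part in the lower heart levels was not tested.

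In classical monocytes 10 of 39 members were lower in heart and 1 was higher, against 18.5% of all genes called and 5.68% called lower. The members' median was -0.27, that of all genes -0.02. Calls included 4 of 11 sensors and 4 of 10 antiviral genes acting on RNA. Ifi203 was at 234.8, 205, 161.6 and 131 CPM in heart and 383.6, 359.1, 305.9 and 257.6 in blood (log2 difference -0.72, adjusted p = 1e-06). All 4 hearts lay below all 4 bloods. Ifi209 differed by -0.74 (adjusted p = 1e-06), Sp100 by -0.65 (adjusted p = 2e-06) and Slfn5 by -0.44 (adjusted p = 7.0e-04), and these 4 genes were called under every alternative.

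The member called higher in heart classical monocytes was Oasl1, at 70.87, 29.81, 16.4 and 31.92 CPM against 15.82, 9.392, 19.75 and 9.09 in blood (log2 difference 1.41, SE 0.34, adjusted p = 0.002). It rested on few cells: 14 of the 16 heart UMIs of control replicate 1 and 15 of the 19 of stroke replicate 2 came from 1 barcode each, and without control replicate 1 the call was lost (1.03, adjusted p = 0.0595). The classical marker sum was 36.59 to 58.95 per 10000 UMIs in heart and 71.47 to 82.55 in blood classical monocytes, and the nonclassical one 15.42 to 17.08 and 6.46 to 7.87. Their part was not tested.

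Other classes had fewer calls. In dendritic cells Slfn5 (-1.21), Ifi209 (-1.18), Sp100 (-0.86) and Ly6e (-0.83) were lower in heart, 4 of 25 members tested, against 6.26% of all genes called and 0.918% called lower. In B cells 2 of 22 were lower, Ifi209 (-0.53) and Ifitm3 (-1.53), against 10.7% of all genes. The Ifitm3 value changed sign under 5 other settings. In NK cells 0 of 9 members were called by edgeR, against 6.44% of all genes called and 1.49% called lower, although the differences of all 9 were negative and 4 passed an unadjusted p of 0.05, against 17% of genes. DESeq2 called 0 as well. Over all cells 5 of 43 members were lower in heart and none higher, against 15.5% of all genes called and 5.42% called lower. That count was 34 without stroke replicate 2, 2 without control replicate 1, 1 without control replicate 2 and 0 without stroke replicate 1.

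**Figure D2:**
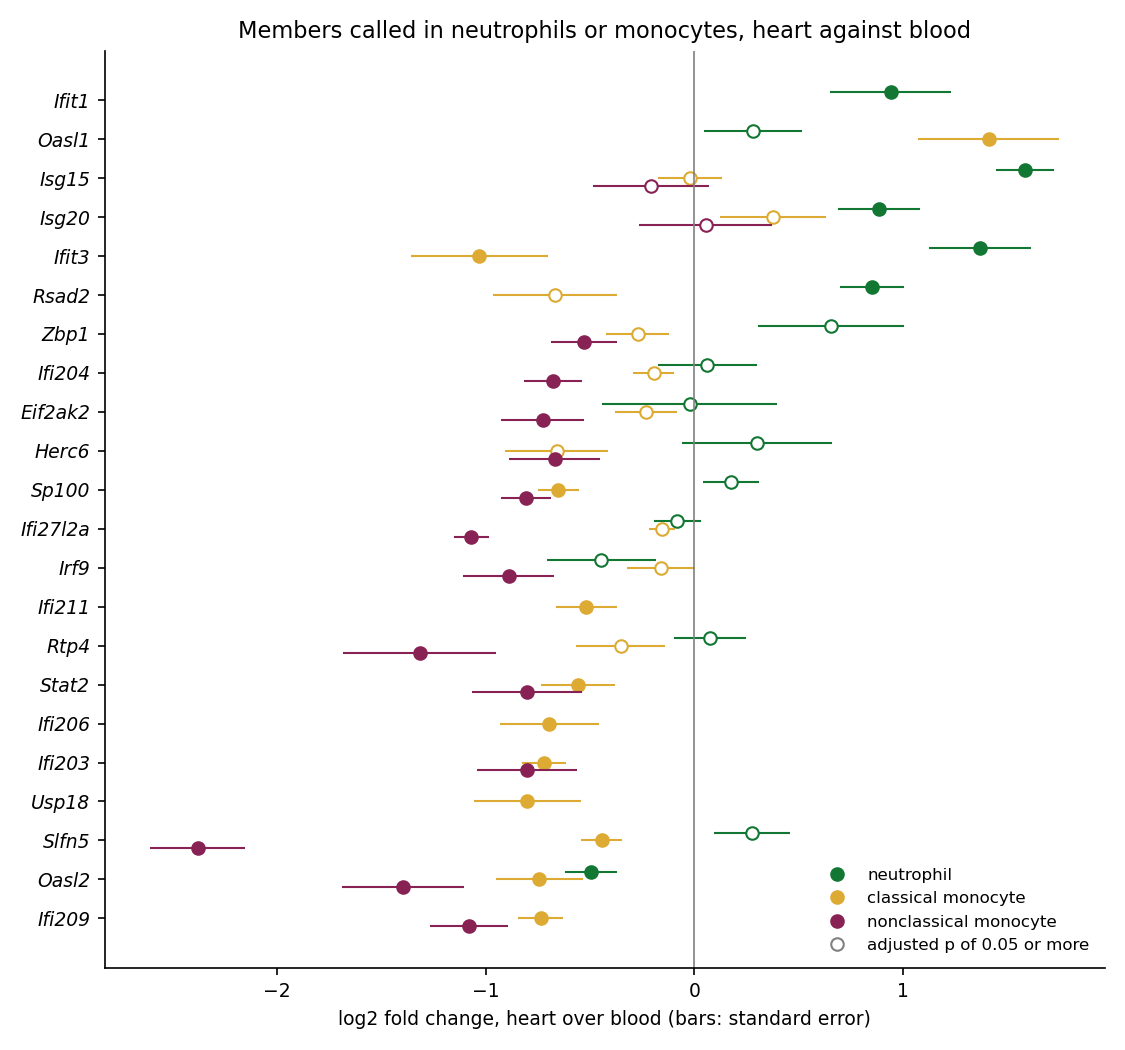
Log2 difference of heart minus blood (horizontal axis) for the 22 members called in neutrophils, classical or nonclassical monocytes. Bars are SE, and filled points have an adjusted p under 0.05. Isg15, Ifit3, Rsad2, Isg20 and Ifit1 lie right of 0 in neutrophils, whereas called members of nonclassical monocytes all lie left of 0.

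Whether the organ difference itself differed between classes was tested over 16 sums with a term for class by organ, a test added after seeing the data. Between neutrophils and classical monocytes 6 of 42 members differed, all with the more positive heart difference in neutrophils, against 6.16% of all genes. They were Ifit1 (difference of the log2 differences 3.23), Ifit3 (2.54), Isg15 (1.74, SE 0.21, adjusted p = 8.3e-09), Rsad2 (1.67), Sp100 (0.95) and Slfn5 (0.84). Between neutrophils and nonclassical monocytes 8 of 33 differed, again all in that direction, against 6.18% of all genes, led by Slfn5 (2.68, SE 0.31, adjusted p = 7.0e-09). Without barcodes rich in core genes by unthinned counts, 2 and 4 members were called.

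Genes outside the list of members were also tested between the organs. Socs3, a feedback inhibitor of cytokine receptors, was higher in heart in classical monocytes by 3.17 and in neutrophils by 1.11, and Irf1, a target of interferon gamma, by 1.40 and 0.50, all called. Of the interferon gamma response list, 6 were higher and 1 lower of 19 in classical monocytes, and 5 and 0 of 13 in nonclassical monocytes, against 18.5% and 17.1% of all genes called, most of them higher in heart.

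The stroke and control groups were compared within each class and organ to ask whether the response differs between recipients of stroke and of control marrow. Cells of donor and of recipient origin were not separated, so a class may hold both. With 2 mice a group, member levels mostly lay higher in stroke recipients, but few passed the test. Over 13 class and organ fits, 2 of 357 member tests passed by edgeR, against 0.0621% of all tests, and 53 passed an unadjusted p of 0.05 (45 of them higher), against 4.6%. DESeq2 called 0. The 2 calls were Ifi27l2a and Oasl1 in heart nonclassical monocytes.

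Over all heart cells 41 of 44 members had a positive log2 difference, with a median of 0.40 against -0.01 for all genes. None passed by edgeR, against 0% of all genes, and 6 passed an unadjusted p of 0.05, against 8.11%. Both stroke mice lay above both controls for 22 of 44 members, against 20.8% of genes. Rsad2 was at 12.6, 20.74, 42.11 and 30.15 CPM (log2 difference 1.09, SE 0.27, adjusted p = 0.594). Its groups did not overlap. Ifitm3 was at 1008, 1426, 1691 and 1589 CPM, where control replicate 2 lay nearer to the stroke mice than to the other control.

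In blood neutrophils 33 of 33 members tested had a positive difference, with a median of 0.73, and in heart neutrophils 24 of 25, with a median of 0.49. Control replicate 1 was the lowest mouse for 24 of 30 and 19 of 24 members with 40 or more UMIs in blood and heart neutrophils. Both stroke mice lay above both controls for 7 of 33 and 8 of 25 members, against 641 of 4792 and 449 of 2937 genes. They lay below both for 0 and 1 members. No member was called in the neutrophils of either organ, against 0.0209% and 0% of all genes, and 6 and 2 passed an unadjusted p of 0.05, against 2.09% and 2.89% of genes. Ifi27l2a was at 202.1, 568.3, 1721 and 564 CPM in blood neutrophils (log2 difference 1.69, SE 0.47, adjusted p = 1.0). Stroke replicate 2 and control replicate 2 were nearly equal, the groups overlapping slightly on this scale and not after TMM scaling. Rsad2, Irf7 and Ifit3 differed by 1.09, 1.15 and 1.32 in blood neutrophils, each with an adjusted p of 1.0. Without stroke replicate 1, Ifit3 reversed to -0.15.

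Other classes varied. In heart macrophages 29 of 43 members were positive, with a median of 0.13 and 0 calls (0.0191% of all genes called). At an unadjusted p of 0.05, 4 members passed, against 3.84% of genes. In heart classical monocytes 13 of 38 were positive, with a median of -0.17 and 0 calls (0.0173% of all genes called), and 4 passed unadjusted, against 5.01%. There Herc6 was at 62.01, 78.26, 21.08 and 28.56 CPM (log2 difference -1.54, SE 0.35, adjusted p = 0.398), with no overlap between groups. Such separation was common: both stroke mice lay below both controls for 8 of 38 members and 963 of 5772 genes. They lay above both for 3 members and 1044 genes. In heart dendritic cells 18 of 21 were positive, with a median of 0.44 and 0 calls (0.199% of all genes called), and 9 passed unadjusted, against 9.05%. Ifi205 came nearest, with 24.51, 13.24, 67.44 and 99.69 CPM (2.08, SE 0.45, adjusted p = 0.062). Neutrophil marker sums in these heart dendritic cells were 0.25, 0.26, 14.57 and 8.77 per 10000 UMIs, and macrophage sums 6.86, 14.19, 20.19 and 16.15. Their part was not tested. Over all blood cells 12 of 43 members were positive, with 0 calls (0% of all genes called) and 0 at an unadjusted p of 0.05, against 0.547%.

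The remaining classes had 0 calls each. In heart B cells 19 of 23 members were positive (0.0966% of all genes called), and 1 passed unadjusted, against 5.51%. In blood B cells 7 of 20 were positive (0.298% called), and 3 passed unadjusted, against 8.85%. In blood classical monocytes 28 of 43 were positive, with a median of 0.08 (0% called), and 5 passed unadjusted, against 3.68%. The median there was small although Ifi27l2a stood at 1529, 2168, 3441 and 2351 CPM. In blood nonclassical monocytes 27 of 32 were positive, with a median of 0.22 (0.0324% called), and 6 passed unadjusted, against 4.1%. In blood dendritic cells 18 of 29 were positive (0% called), and 0 passed unadjusted, against 1.89%. In NK cells 4 of 7 were positive in heart and 12 of 17 in blood (0% called in both), and 0 and 1 passed unadjusted, against 3.01% and 4.18%. The lists of receptors, sensing genes and interferon gamma targets had no called gene in any stroke fit.

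**Figure D3:**
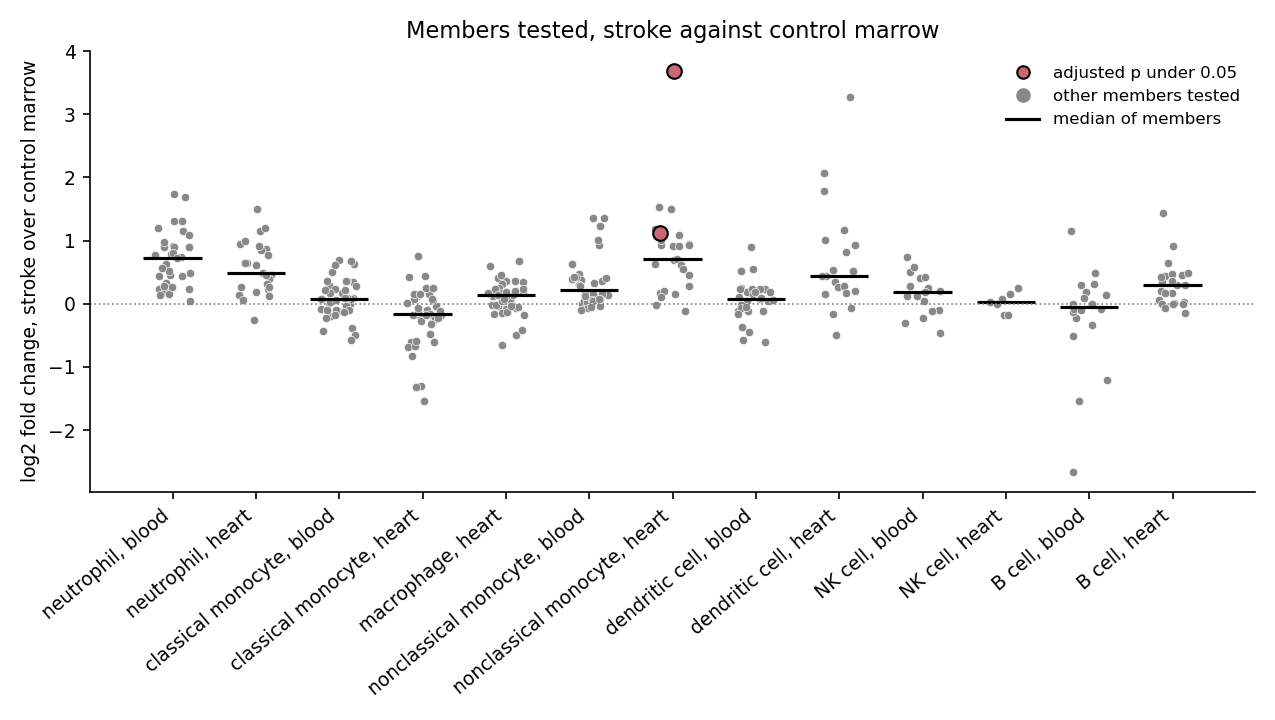
Log2 difference of stroke minus control (vertical axis) of every member tested in each class and organ. Grey points are members, red points those called by edgeR, and lines the members' median. Both red points lie in heart nonclassical monocytes, and medians are highest in blood neutrophils (0.73) and heart nonclassical monocytes (0.70).

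In heart nonclassical monocytes 24 of 26 members were positive, with a median of 0.70, 2 calls (0.0993% of all genes called) and 12 at an unadjusted p of 0.05, against 4.55% of genes. Ifi27l2a was at 216.5, 329.2, 785.4 and 395.2 CPM (log2 difference 1.12, SE 0.22, adjusted p = 0.0062). Both stroke mice lay above both controls, but stroke replicate 2 lay close to control replicate 2. Without stroke replicate 1 the difference was 0.49 (adjusted p = 0.999), and with organs assigned by the hashtag ratio 1.00 (adjusted p = 0.296).

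Stroke replicate 1 had the highest Ifi27l2a level in all 15 sums, 2 of them over all cells. In heart macrophages it was at 2568 CPM, against 1004, 1711 and 1766 in the others, and in heart B cells at 1363, against 206.1, 433.9 and 413.1. The share of heart nonclassical monocytes with a UMI of Ifi27l2a was 38.38%, 46.79%, 67.73% and 48.03%, and of blood neutrophils 16.9%, 28.84%, 59.58% and 34.78%. In heart NK cells, where the gene was near absent, the shares were 0%, 0%, 4.762% and 3.571%, at median depths of 2540 to 3890 UMIs per cell, against 3041 to 4027 in heart nonclassical monocytes and 1815 to 1977 in blood neutrophils. Stroke replicate 1 was thus the high sample in B cells and myeloid cells of both organs.

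**Figure D4:**
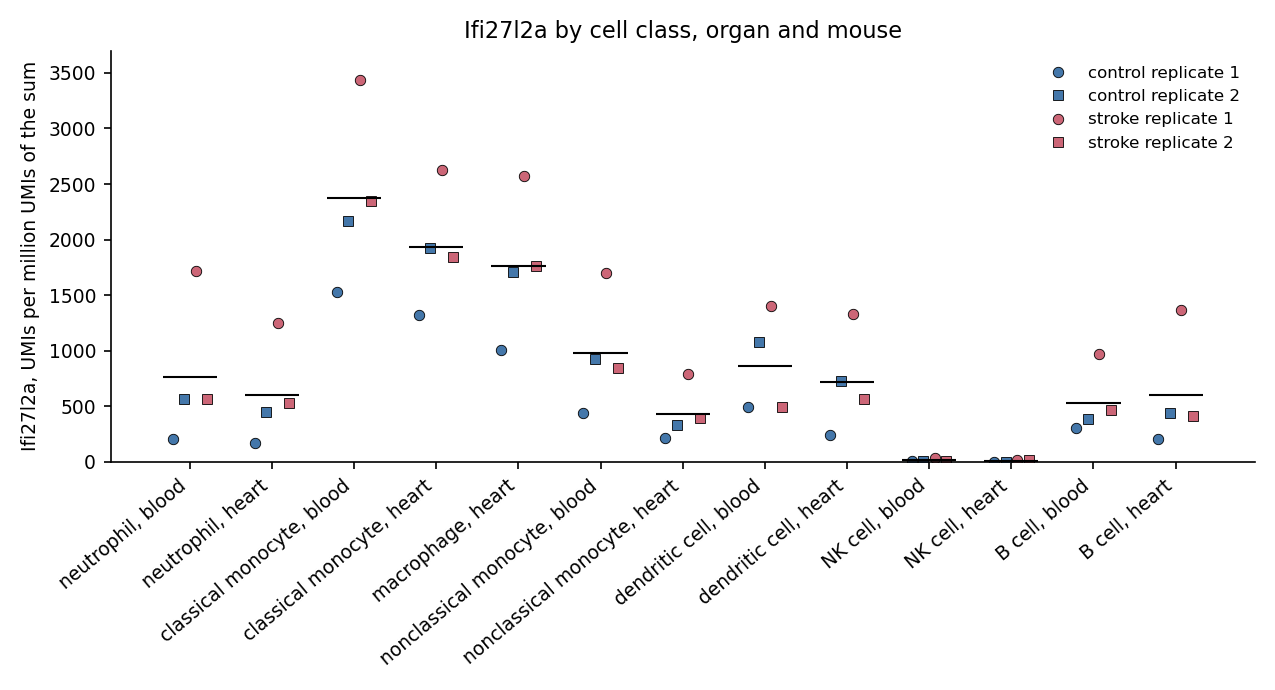
Ifi27l2a level in CPM (vertical axis) in each class of heart and blood. Points are mice, coloured by donor group, and lines are means of 4 mice. Stroke replicate 1 is the highest point in every class, and NK cells lie near 0.

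The call of Oasl1 in heart nonclassical monocytes rested largely on 2 barcodes. Its UMIs were 0, 2, 21 and 10 in the 4 mice (0, 2.887, 25.97 and 26.7 CPM, log2 difference 3.69, SE 0.80, adjusted p = 0.0238), and 17 of the 21 and 8 of the 10 came from 1 barcode each. The barcode in stroke replicate 1 held 3310 UMIs of 1486 genes and lay in cluster 6 with most heart nonclassical monocytes. Of that class's markers it held 2 UMIs of Pou2f2, 1 each of Spn and Cd300e, and 0 of Nr4a1, Ace, Treml4, Eno3 and Adgre4, so its own class is weakly marked. It also held all 10 UMIs of Ifnb1, the transcript of interferon beta itself, found in the barcodes kept after filtering. With them came 20 of the 21 Ifit1 UMIs of its class in that mouse, 20 of 26 of Ifit2, 19 of 54 of Isg15, 10 of 28 of Ifit3 and 12 of 70 of Ifih1 (the RNA sensor MDA5). It held 19 of 40 UMIs of Cxcl10, a chemokine induced by interferon, and none of Ifi27l2a. Its 101 core UMIs amount to 305.1 per 10000. A barcode is taken as 1 cell, and no replicate of it exists.

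**Figure D5:**
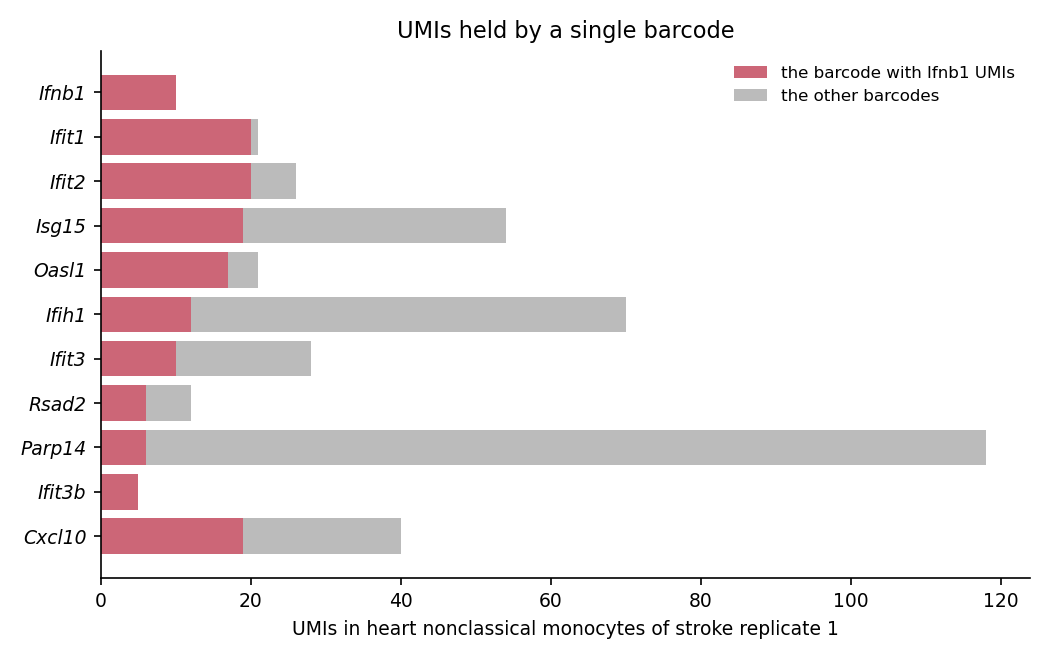
UMIs of Ifnb1, Cxcl10 and the members with 5 or more UMIs in the single barcode and under 200 in its class, split into that barcode and the remaining heart nonclassical monocytes of stroke replicate 1. The barcode held all 10 Ifnb1 UMIs and 20 of 21 Ifit1 UMIs.

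Without that barcode Ifi27l2a was still called in heart nonclassical monocytes (1.12, adjusted p = 0.0037), Oasl1 was too low to be tested, and Isg15 went from 1.53 to 1.00. Whether the stroke difference differed between heart and blood was tested by an interaction term. Of 172 member tests over 6 classes 3 passed, against 0.0443% of all tests. Herc6 in classical monocytes was at 62.01, 78.26, 21.08 and 28.56 CPM in heart and 71.84, 67.96, 83.61 and 112.1 in blood (difference -2.04, adjusted p = 0.0425), so that stroke mice were low in heart and high in blood. Ifitm3 in B cells (3.11, adjusted p = 0.0476) was at 6.091 to 131.1 CPM in blood and 11.2 to 37.32 in heart, levels far below the myeloid classes. This value turned to -1.23 at a Leiden resolution of 2 and to -0.66 with organs from the hashtag ratio.

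Ifit3 in nonclassical monocytes was at 0, 0, 34.63 and 8.01 CPM in heart and 6.04, 41.4, 32.78 and 0 in blood (7.27, adjusted p = 0.0021). Both controls were at 0 UMIs in heart, so the fitted size depends on the prior count and is no measure of fold. Without the Ifnb1 barcode the term was 6.73 (adjusted p = 0.0903). A blood nonclassical monocyte barcode of control replicate 2 held 15 of the 21 Ifit3 UMIs and all 34 Cxcl10 UMIs of that sum, and without it the Ifit3 term was 5.77 (adjusted p = 0.912) and the Cxcl10 term went from 5.10 to -2.13.

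The ligands were otherwise scarcely seen. The Ifna genes with a row had 0 UMIs in the barcodes kept after filtering, to which all counts in this paragraph refer. Ifng, the type II interferon, had 211 UMIs, 94 of them in heart and 109 in blood NK cells, and was higher in heart NK cells by 1.45 on the log2 scale (SE 0.27, adjusted p = 3.3e-04), with 261.2, 121.5, 239.9 and 91.18 CPM against 79.09, 42.98, 58.73 and 109 in blood. Stroke replicate 2 was the exception, with the lower value in heart. The receptor chains Ifnar1 and Ifnar2 had 3351 and 7915 UMIs.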

How the data were processed

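Per the labels, libraries were 10x 3′ single-cell libraries with hashtag antibodies, and per the submitters' processing notes they were processed with Cell Ranger 7.1.0 on mm10. The deposited table holds raw UMI counts for 11130 barcodes. Barcode suffixes 1 to 4 were matched to the sample numbers in the labels, which is an assumption. Organs came from hashtag counts (Seurat 5.3.0, HTODemux, k-means, quantile 0.99). Barcodes with under 200 genes, over 10% mitochondrial UMIs, over 10% haemoglobin UMIs (6 barcodes), 2 hashtags or a Scrublet score over 0.25 were left out. Leiden clusters (scanpy 1.11.5, resolution 1) were built without the members, interferon gamma targets and sex-linked genes, and were named from marker lists. The rules for leaving a cluster unnamed and the haemoglobin limit were set after seeing the data. UMIs were summed per mouse, organ and class (20 or more barcodes in each) and tested with edgeR 4.0.16 (quasi-likelihood, TMM, Benjamini-Hochberg over all genes). DESeq2 1.42.0 was an alternative. Log2 differences come from these fits. Heart against blood used the mouse as a block, and stroke against control did not. The tests were tested on simulated data. Nothing says that replicates are independent beyond being separate mice, so p-values measure the spread between these samples. An item of the signalling lists is not reported here. Members and lists were chosen with earlier results of these data known. Genes named with values are members called in a comparison, the 5 with the smallest p in stroke fits and those with most UMIs in each role.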

Additional observations from a re-analysis of the deposited data

Results flagged for a closer look

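The heart-blood difference differed between classes for several members (edgeR, class by organ term, a test added after seeing the data). Between neutrophils and classical monocytes the difference of log2 differences was 3.232 for Ifit1 (adjusted p = 3.0e-05), 2.538 for Ifit3 (1.9e-05), 1.736 for Isg15 (8.3e-09), 1.665 for Rsad2 (2.5e-04), 0.952 for Sp100 (1.4e-04) and 0.844 for Slfn5 (0.0067). Between neutrophils and nonclassical monocytes it was 2.682 for Slfn5 (adjusted p = 7.0e-09), 2.147 for Ifit3 (0.0082), 1.967 for Rsad2 (0.0145), 1.827 for Isg15 (5.8e-05), 1.425 for Rtp4 (0.0256), 1.229 for Zbp1 (0.0366), 1.016 for Ifi27l2a (2.8e-06) and 1.009 for Sp100 (1.3e-04). The heart-blood value of neutrophils was the more positive in all 14 of these, and heart neutrophils held marker UMIs of nonclassical monocytes above those of blood neutrophils, whose part was not tested.

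The stroke-control difference differed between heart and blood by 3.108 for Ifitm3 in B cells (adjusted p = 0.0476), by -2.04 for Herc6 in classical monocytes (0.0425) and by 7.271 for Ifit3 in nonclassical monocytes (0.0021). It also differed by 5.104 for Cxcl10 in nonclassical monocytes (1.2e-05), a chemokine gene that is no member. The Ifitm3 value turned to -1.225 at a Leiden resolution of 2 and to -0.66 with organs from the hashtag ratio. Without the Ifnb1 barcode the Ifit3 and Cxcl10 values were about as large but did not pass (6.73, adjusted p = 0.0903, and 4.30, adjusted p = 0.0781). Without the blood barcode that held most Cxcl10 they were 5.77 (adjusted p = 0.912) and -2.13.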

How the results depend on the processing

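With 2 mice a group and sums of as few as 20 cells, calls rest on few libraries. Alternatives on single barcodes, on cells rich in core genes and the class by organ test were chosen after seeing the data. In the alternatives without rich cells, barcodes were left out by unthinned counts, not by the thinned rule. Of 190 named results, 77 kept direction and side of the threshold under every alternative run and 19 changed sign under at least 1. Replicate numbers were used as a block in an alternative. Deviations of same-numbered mice correlated from -0.327 to 0.124 over genes. With 2 mice a group this cannot show whether the numbers mark a batch, and the main fits used them only to name mice. The replicate block left 0 heart calls over all cells, gave 2 calls over blood classes (main 0), namely Ifi27l2a in neutrophils (1.77) and in nonclassical monocytes (0.92). Heart against blood, fitted without its mouse block (no replicate block), gave 0 calls in B cells, 1 in dendritic cells and 3 in neutrophils.

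Heart against blood, members called: B cells 2 (library totals without TMM 7, DESeq2 0, and 4 each with no low-count filter, Leiden resolution 2, automatic doublet threshold, hashtag doublets only and stricter cell filters), NK cells 0 (1 with no filter, the automatic threshold or hashtag doublets only), classical monocytes 11 (library totals 21, DESeq2 6, hashtag doublets only 7, stricter filters 5, without rich cells 5), dendritic cells 4 (library totals 7, no filter 10, resolution 2 9, hashtag doublets only 8, hashtag ratio 12), neutrophils 6 (DESeq2 3, without rich cells 3) and nonclassical monocytes 13 (DESeq2 5). Leaving out 1 mouse gave 0 to 3 in B cells, 0 to 1 in NK cells, 0 to 34 over all cells, 5 to 12 in classical monocytes, 0 to 13 in dendritic cells, 2 to 7 in neutrophils and 7 to 14 in nonclassical monocytes.

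Stroke against control gave 2 calls over heart classes (DESeq2 0, no filter 11, and 1 each with interferon genes kept for clustering, the hashtag ratio, without rich cells and without the Ifnb1 barcode), 0 over blood classes (no filter 5, stricter filters 1) and 0 over all heart cells (no filter 13). Leaving out 1 mouse gave 1 to 23, 1 to 20, 0 to 8 and, over all blood cells, 0 to 34. The interaction gave 3 calls over classes (DESeq2, resolution 2 and the hashtag ratio 0, and 1 each with interferon genes kept, the automatic threshold, stricter filters and without rich cells), and 0 to 3 over classes and 0 to 35 over all cells without 1 mouse. The class by organ test gave 6 for classical monocytes (2 without rich cells, 5 to 9 without 1 mouse) and 8 for nonclassical monocytes (DESeq2 5, 4 without rich cells, 4 to 9 without 1 mouse).

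Without Ifitm3, Ly6e, Bst2 and Ifi27l2a the summed member level was 32.31 per 10000 UMIs in heart and 32.25 in blood neutrophils, 35.84 and 49.49 in classical and 13.85 and 21.81 in nonclassical monocytes, and 27.01 in macrophages. The mean rich share over mice was 4.303% in heart neutrophils (3 genes 12.18%, 2000 UMIs 7.794%, unthinned 7.668%, without 1 mouse 3.489% to 5.141%), 3.035% in blood neutrophils (3 genes 11.72%, unthinned 6.575%, 2.16% to 3.806%), 1.692% in blood classical monocytes (4.845%, 3.113%, 9.08%, 1.303% to 2.255%) and 0.4374% in macrophages (1.611%, 0.9284%, 4.091%, 0.4026% to 0.4841%, automatic threshold and hashtag doublets only 0.2382%, hashtag ratio 0.2477%).

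Changes of sign, as log2 values with causes not tested: Ifitm3 in B cells, heart against blood, was 2.894 at resolution 2, 1.003 with the automatic threshold, 0.809 with hashtag doublets only, 0.961 with the hashtag ratio and 1.174 with stricter filters, and its interaction -1.225 at resolution 2 and -0.66 with the hashtag ratio. The Cxcl10 interaction was -1.102 with stricter filters, -1.575 without rich cells, -2.132 without the blood barcode and -2.295 to 7.556 without 1 mouse. With interferon genes kept, Usp18 in blood dendritic cells was -0.065 and Rsad2 in heart classical monocytes 0.14. Usp18 was -0.0 without rich cells. In heart NK cells Ly6e was -0.12 with the hashtag ratio and Parp14 0.042 with hashtag doublets only. Without 1 mouse the stroke difference ranged from -1.917 to 0.06 for Ifi213 in blood B cells, from -1.548 to 0.051 for Dhx58 and -2.724 to 0.224 for Oas1a over all blood cells, from -0.55 to 1.425 for Ddx58, -2.298 to 0.256 for Slfn5, -1.253 to 1.08 for Usp18 and -1.134 to 0.174 for Zbp1 in blood dendritic cells, from -0.149 to 1.914 for Ifit3 and -0.347 to 2.497 for Ifit3b in blood neutrophils, from -0.353 to 2.554 for Oasl2 in blood nonclassical monocytes, and in heart NK cells from -0.622 to 0.066 for Ifi203, -0.801 to 0.669 for Ifi209, -0.398 to 0.659 for Ly6e, -0.543 to 0.433 for Parp14 and -0.118 to 0.436 for Sp100.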
